A study of Sus scrofa with 4 samples.

Results

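The transcriptional coactivators YAP1 and WWTR1 (the gene of TAZ), the DNA-binding factor TEAD1 and 7 genes that respond to them were followed during the differentiation of porcine subcutaneous preadipocytes. The 10 genes were taken by name from the 16192 protein-coding genes with FPKM values, and all 10 were found, with CYR61 and CTGF under these names. FPKM relates the fragments of a gene to the length of its transcript and to the size of the library, so that levels can be set side by side between genes. Preadipocytes were isolated from 3 male Chinese Erhualian piglets of 5 days of age. D0 stands for confluent cells in growth medium with serum before any hormone was added. D2 stands for cells after 2 days with dexamethasone, 3-isobutyl-1-methylxanthine and insulin, D4 for cells after a further 2 days with insulin only, and D8 for cells returned to growth medium after D4. For each stage, RNA of the 3 piglets was mixed in equal parts and made into 1 library. There are therefore 4 libraries without replicates, the day, the medium and the library cannot be told apart, and no test between stages was possible. In RNA of whole cultures, fewer cells that express a gene and less RNA per cell cannot be told apart either.

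YAP1 and TAZ carry no DNA-binding domain of their own and act on genes through TEAD factors. The Hippo kinases LATS1 and LATS2 phosphorylate both coactivators and keep them in the cytoplasm, whereas spreading on a stiff matrix, stress fibres and serum favour their entry into the nucleus. Several targets, such as LATS2 and AMOTL2, encode inhibitors of the same coactivators and form a feedback loop. In mesenchymal progenitors, TAZ is known as a repressor of PPARG activity and YAP/TAZ activity is associated with fibroblast and bone fates, whereas adipocytes round up during their differentiation.

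The library totals behind FPKM, recovered from the deposited values, ranged from 54128151 to 75387428 fragments. Of each total, 98.9% to 99.1% lay in the listed genes, so these are totals over genes and not over all mapped reads. The mapped reads reported by the study stand in other proportions between the libraries, and scaling by them was not tried. A gene was taken as reliably expressed when 3 or 4 of the 4 libraries had an FPKM of 1 or more, which was met by 9191 protein-coding genes and by 9 of the 10 genes. ANKRD1 did not meet this threshold, because it was under FPKM 1 at D2 and D4. The words rose and fell are used below only for ratios of at least 2. All intervals are 95% intervals of the fragment numbers, exact Poisson for a level and Clopper-Pearson for a ratio, and cover counting error only. The summed FPKM of 5 adipocyte markers was 84.2, 267, 1252 and 1861 at D0, D2, D4 and D8, although LEP was under FPKM 1 in each library. FABP4 made up most of this sum, and the markers diverged from D4 to D8. FABP4 went from 853 to 1557 and CIDEC from 5.01 to 54.6, whereas PLIN1 went from 215 to 90.3 and ADIPOQ from 179 to 158. All 8 preadipocyte and fibroblast markers were reliably expressed. Of the markers of other cell types, FPKM stayed under 1 in all libraries for 4 of 5 endothelial markers, for 3 of 4 listed leukocyte markers, for both listed skeletal muscle markers, for 3 of 4 listed epithelial markers and for 3 of 5 markers of pericytes and smooth muscle. The epithelial marker above this level, KRT8, was at 4.46, 8.25, 15.8 and 25.1 at D0, D2, D4 and D8. The leukocyte marker CD14 was at 3.14, 5.64, 7.54 and 2.78, and the endothelial marker PECAM1 at 2.56, 1.14, 1.7 and 1.87. The summed FPKM of the pericyte and smooth muscle markers was 6.73, 2.01, 3.17 and 5.13 at D0, D2, D4 and D8, with CSPG4 at 3.85, 0.338, 0.516 and 2.72. The course of the sum was that of CSPG4. NOTCH3, the only reliably expressed marker of this list, stayed between 1.10 and 1.66, and MCAM and MYH11 were at 0.105 and 0.289 at D8, under their D0 levels of 0.777 and 0.633. The smooth muscle actin gene ACTA2 is not on this list and is named after its values were seen. It was at 2907, 324, 225 and 2762 at D0, D2, D4 and D8. The part of these cell types in the results below was not tested.

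In the Sscrofa11.1 assembly, YAP1 lies on chromosome 9 (chr9:32811629-32924926, plus strand), WWTR1 on chromosome 13 (chr13:89742980-89889547, minus strand) and TEAD1 on chromosome 2 (chr2:46396490-46670619, minus strand). LATS2 is found on chromosome 11 (chr11:1225523-1265970, minus strand), AMOTL2 on chromosome 13 (chr13:75490936-75507360, minus strand) and AJUBA on chromosome 7 (chr7:76063009-76072884, plus strand). The short genes CTGF, CYR61 and ANKRD1 occupy chromosome 1 (chr1:31674398-31677697, plus strand), chromosome 4 (chr4:130392404-130395179, minus strand) and chromosome 14 (chr14:102603777-102612857, minus strand), and AXL occupies chromosome 6 (chr6:49245802-49277917, plus strand). CYR61 lies entirely within the span of ZNHIT6, which is encoded on the opposite strand. ZNHIT6 had an FPKM of 11.7, 3.55, 3.59 and 7.01 at D0, D2, D4 and D8, a course like that of CYR61. The libraries were made with a directional kit, but whether the counting used the strand is not given in the sources used here, so the reads of these genes may not be fully separated. ANKRD1 partly overlaps RPP30 on the opposite strand, with an FPKM of 6.20, 8.27, 7.18 and 6.25 at D0, D2, D4 and D8, a course unlike that of ANKRD1. It also overlaps the antisense transcript MSTRG.126783, at 0.353, 0, 0 and 0.281, which was found only in the libraries where ANKRD1 was higher. The antisense transcript MSTRG.111648 overlaps AMOTL2, at 0.233, 0, 0.27 and 0.556. On the opposite strand, MSTRG.2097 overlaps CTGF, at 0.607, 0.32, 0.474 and 0.52. LOC102157672 overlaps YAP1, at most at 0.788, and LOC110259298 and LOC102164222 overlap TEAD1, at most at 0.192. The limit given for CYR61 holds for all these overlaps too.

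**Figure D1:**
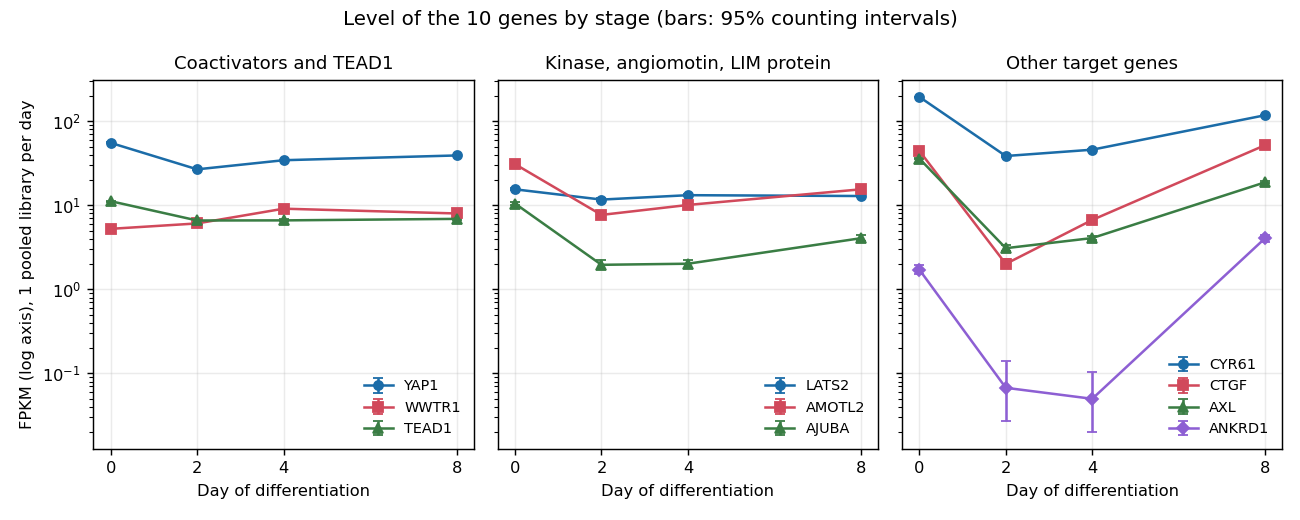
FPKM (log axis) of the 10 genes against the day of differentiation, with 1 pooled library per day and bars for the 95% counting intervals. YAP1 stayed between 26.8 and 55.3 while CTGF went from 44.5 to 2.01 and back to 52.0, and ANKRD1 was at 0.0675 at D2 and 0.0499 at D4.

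The coactivators themselves moved in different ways. YAP1 was the more abundant one, with an FPKM of 55.3, 26.8, 34.4 and 39.2 at D0, D2, D4 and D8. The level was highest at D0 and lowest at D2, and each step between neighbouring levels was larger than counting error. YAP1 fell from D0 to D2 by a log2 ratio of -1.04 (-1.08 to -1.0), just past the 2-fold threshold, and this call was lost under TPM (-0.93) and upper-quartile scaling (-0.98). WWTR1 had an FPKM of 5.25, 6.09, 9.12 and 8.0 at D0, D2, D4 and D8. It was the only one of the 10 genes that was lowest at D0, and its log2 ratio of D4 to D0 was 0.80 (0.71 to 0.88), under the 2-fold threshold. From D4 to D8 its log2 ratio was -0.19 as deposited and 0.02 under median-ratio scaling, so that no direction is given. TEAD1 had an FPKM of 11.2 at D0 and then stayed at 6.60, 6.62 and 6.90. The log2 ratio of D2 to D0 was -0.76 (-0.81 to -0.71), and the levels at D2 and D4 did not differ beyond counting error.

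LATS2, AMOTL2 and AJUBA act upstream of the coactivators. LATS2, the kinase of YAP1 and TAZ, had an FPKM of 15.5, 11.7, 13.2 and 12.9 at D0, D2, D4 and D8. It had the smallest range of the 10 genes, with a ratio of 1.33 between the highest and the lowest library, and D4 and D8 did not differ beyond counting error. AMOTL2, an angiomotin family protein that holds YAP1 at junctions and actin, had an FPKM of 30.9, 7.69, 10.1 and 15.5 at D0, D2, D4 and D8. It fell from D0 to D2 by a log2 ratio of -2.0 (-2.08 to -1.93), and at D8 it was at 50.2% of the D0 level. AJUBA, a LIM domain protein that binds and inhibits LATS kinases, had an FPKM of 10.5, 1.96, 2.02 and 4.06 at D0, D2, D4 and D8. The level at D0 was above all others, and D2 and D4 did not differ beyond counting error. AJUBA fell by -2.41 (-2.61 to -2.23) from D0 to D2, and was the only one of the 10 genes that was still at least 2-fold lower at D8 than at D0 (log2 ratio -1.37, -1.51 to -1.23). Its rise from D4 to D8 (log2 ratio 1.01, 0.82 to 1.20) lay at the threshold and was under it with a pseudocount of 0.1 (0.98) or 1 (0.75) and under TPM (0.96).

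CYR61 and CTGF encode secreted matricellular proteins of the CCN family and are the most widely used readouts of YAP/TAZ-TEAD activity. CYR61 was the most abundant of the 10 genes in every library, with an FPKM of 195, 38.6, 45.9 and 118 at D0, D2, D4 and D8. It fell by a log2 ratio of -2.34 (-2.38 to -2.29) from D0 to D2 and rose by 1.36 (1.32 to 1.41) from D4 to D8, when it reached 60.6% of the D0 level. CTGF had an FPKM of 44.5, 2.01, 6.70 and 52.0 at D0, D2, D4 and D8. The D2 library held 260 fragments of CTGF against 7883 at D0. The log2 ratio of D2 to D0 was -4.46 (-4.65 to -4.29), and of the 9191 reliably expressed mRNAs only 3 had a lower ratio in this comparison. CTGF was the only one of the 10 genes that rose from D2 to D4 (1.73, 1.54 to 1.93), and it rose again from D4 to D8 (2.95, 2.87 to 3.05). At D8 it was at 117% of the D0 level.

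AXL is a receptor tyrosine kinase of the TAM family and ANKRD1 is a nuclear and sarcomeric ankyrin repeat protein induced by stretch in muscle. AXL had an FPKM of 36.0, 3.09, 4.08 and 18.8 at D0, D2, D4 and D8. D2 and D4 were far under both other stages, with log2 ratios of -3.54 (-3.65 to -3.43) for D2 vs D0 and 2.20 (2.12 to 2.30) for D8 vs D4. ANKRD1 had an FPKM of 1.72, 0.0675, 0.0499 and 4.07 at D0, D2, D4 and D8, which came from 244, 7, 7 and 416 fragments. The D2 and D4 levels did not differ beyond counting error and lay above the level of 3 fragments, which was 0.0289 at D2 and 0.0214 at D4. ANKRD1 had the widest range of the 10 genes, with log2 ratios of -4.48 (-6.0 to -3.60) for D2 vs D0 and 6.09 (5.30 to 7.67) for D8 vs D4. Without the added 0.01, to which the intervals belong, the ratios were -4.67 and 6.35. The intervals are wide because they rest on 7 fragments. It was also the only one of the 10 genes that was at least 2-fold higher at D8 than at D0 (1.24, 1.02 to 1.48), a call that was lost with a pseudocount of 1 (0.90).

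**Figure D2:**
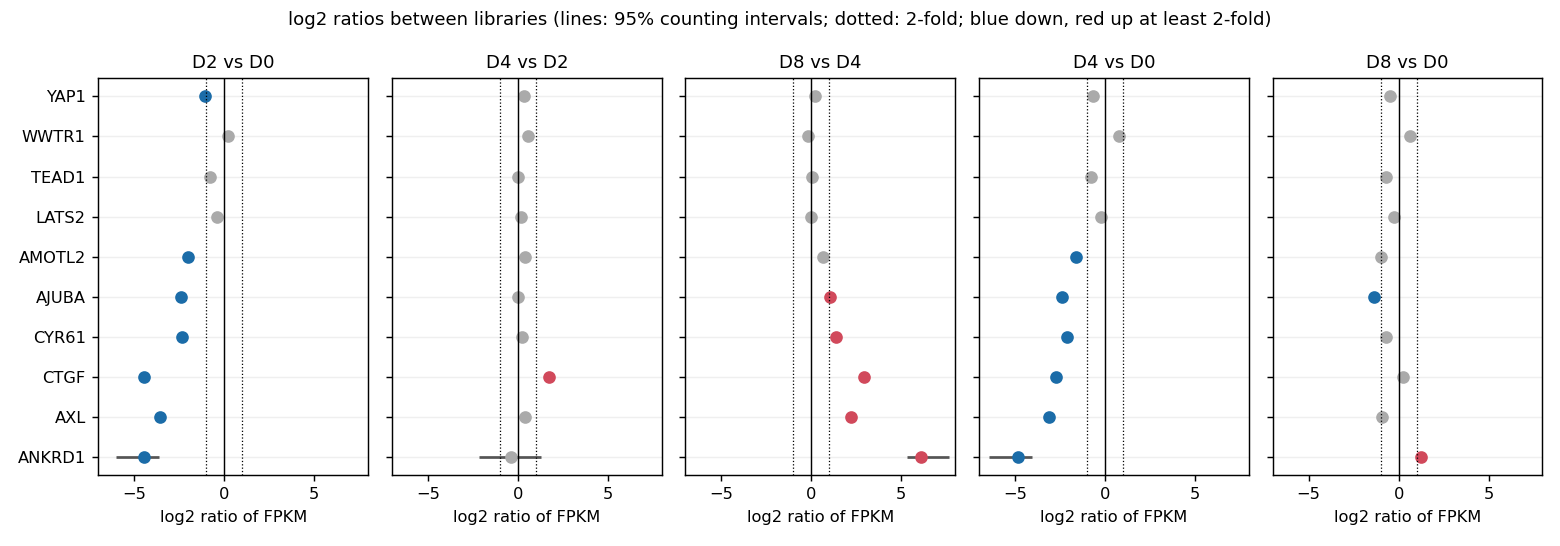
log2 ratios of FPKM (points) of the 10 genes in the 5 comparisons, with lines for the 95% counting intervals, dotted lines at 2-fold, blue for at least 2-fold down and red for at least 2-fold up. In D2 vs D0 the points of 7 genes lie at or beyond the left dotted line, and in D8 vs D4 the points of 5 genes lie beyond the right one.

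Between D0 and D2, 6 of the 9 reliably expressed genes fell at least 2-fold (YAP1, AMOTL2, AJUBA, CYR61, CTGF and AXL) and none rose, against 10.1% of all reliably expressed mRNAs that fell and 6.67% that rose. The median log2 ratio of the 9 genes was -2.0, and that of the 9191 mRNAs was -0.03. The share of genes that fell therefore lay above the background in this comparison. The 10 genes were chosen with earlier results of these data known, so this share cannot serve as a test. Between D2 and D4, 1 of the 9 genes rose and none fell, with 4.24% and 0.838% of all mRNAs, and the median was 0.36 beside 0.09. Here AJUBA (log2 ratio 0.04) and TEAD1 (0.00) changed sign with the scaling. Between D4 and D8, AJUBA, CYR61, CTGF and AXL rose and none of the 9 fell, whereas 4.43% of all mRNAs rose and 10.1% fell. The median log2 ratio was 0.62 for the 9 genes and -0.21 for all mRNAs. Since more mRNAs were lower than higher at D8, the background depended on the scaling, and under median-ratio scaling 6.43% rose and 5.94% fell, with the same 4 genes past the threshold. ANKRD1, which had not passed the filter, would add 1 gene to those that fell from D0 to D2 and 1 to those that rose from D4 to D8.

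In the comparisons of D4 and D8 with D0, which share the D0 library with D2 vs D0, 5 of the 9 genes were at least 2-fold lower at D4 (8.81% of all mRNAs) and none was higher (10.4%). At D8, 1 of the 9 genes was at least 2-fold lower (3.68%) and none was higher (3.60%). The median log2 ratio of the 9 genes to D0 was -1.61 at D4 and -0.70 at D8, against 0.06 and -0.18 for all mRNAs. Under median-ratio scaling the median of all mRNAs at D8 vs D0 moved to -0.03, with 4.41% higher and 2.26% lower, CTGF was at 0.38, CYR61 at -0.57 and YAP1 at -0.34. The genes thus fell into different classes at D8. WWTR1, CTGF and ANKRD1 were above their D0 levels, AMOTL2, AXL, CYR61, YAP1, TEAD1 and LATS2 lay between 50.2% and 83.0% of D0, and AJUBA was at 38.7%.

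A fall from D0 to D2 together with a rise from D4 to D8 was examined as well, because these comparisons share no library. The pattern was found for AJUBA, CYR61, CTGF and AXL among the 9 genes, and for 286 of the 9191 mRNAs (3.11%). The lowest of the 4 levels was at D2 for 8 of the 9 genes (22.2% of all mRNAs), and the highest was at D0 for 7 of them (36.5%). WWTR1 was the exception in both respects, and CTGF, which was highest at D8, in the latter. For 2 of the 8 genes lowest at D2, TEAD1 and AJUBA, D2 did not differ from D4 beyond counting error, and D4 was the lower one under median-ratio scaling (log2 ratios of D4 to D2 of -0.09 and -0.05).

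A published signature of YAP/TAZ targets with 22 genes, which holds 6 of the 10 genes, was then used to see how far the other targets followed. The signature was derived in other cells, and like the 10 genes it was chosen with earlier results of these data known. Outside the 10 genes, 11 of its 16 remaining genes were reliably expressed, and 6 of the 11 fell from D0 to D2 (MYOF, F3, CRIM1, FJX1, NT5E and ARHGEF17) while none rose, against 10.1% of all mRNAs that fell and 6.67% that rose. Their median log2 ratio was -1.13, beside -0.03 for all mRNAs. MYOF, a ferlin of membrane repair, had an FPKM of 40.5, 7.81, 8.73 and 19.8 at D0, D2, D4 and D8. CRIM1, a transmembrane protein that binds bone morphogenetic proteins, went from 25.4 to 3.92, 5.16 and 10.6. These genes and CYR61 had similar log2 ratios from D0 to D2, of -2.37 for MYOF and -2.69 for CRIM1. Both also rose from D4 to D8, by 1.18 and 1.03.

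F3, the gene of tissue factor, had an FPKM of 17.6, 4.51, 11 and 20.3 at D0, D2, D4 and D8. Like CTGF, it rose already from D2 to D4 (log2 ratio 1.28) and ended above D0. NT5E, an ecto-nucleotidase and surface marker of mesenchymal cells, had an FPKM of 3.22, 1.10, 0.731 and 1.15, and stayed at least 2-fold lower at D8 than at D0 (log2 ratio -1.48). Other genes of the signature took another course. CCDC80, a secreted matrix protein, was at 33.8, 49.3, 44.6 and 71.6, and TGFB2, a ligand of the transforming growth factor beta receptors, rose from 1.56 at D2 to 3.41 at D4 and fell to 1.66 at D8. GADD45A, a stress-response gene, stayed between 77.0 and 95.1. From D4 to D8, 2 of these 11 genes rose and 1 fell, beside 4.43% and 10.1% of all mRNAs, and their median log2 ratio was 0.26 beside -0.21. With the signature genes that are among the 10, 10 of 16 fell from D0 to D2 and 5 of 16 rose from D4 to D8, with medians of -1.36 and 0.63.

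**Figure D3:**
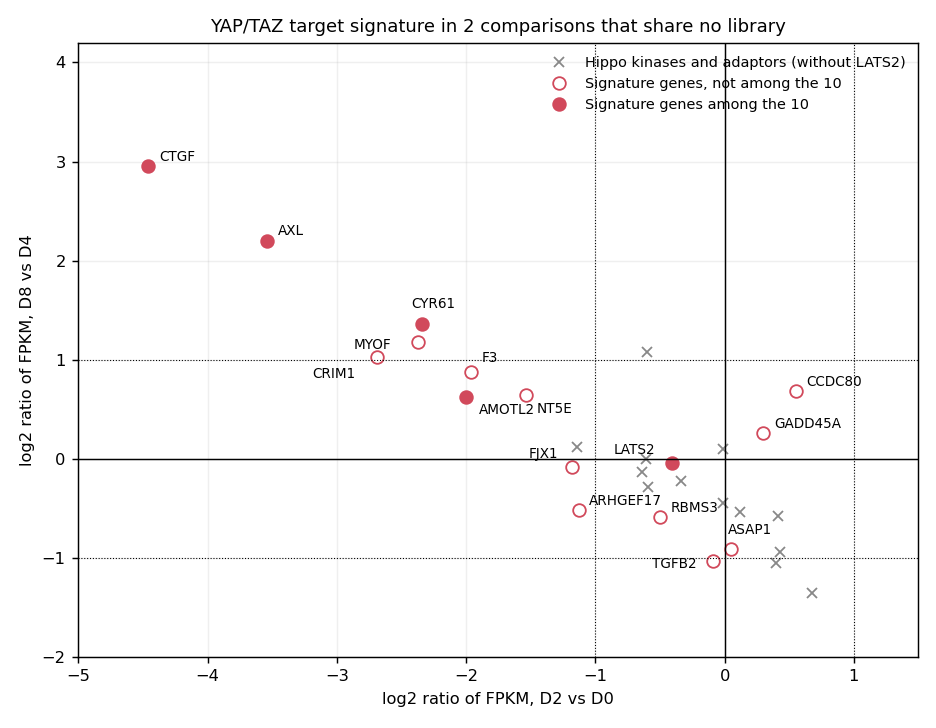
log2 ratios of FPKM for D8 vs D4 (y axis) against D2 vs D0 (x axis) for the reliably expressed genes of the YAP/TAZ target signature (filled circles for those among the 10 genes, open circles for the others) and for Hippo kinases and adaptors without LATS2 (crosses). CTGF at -4.46 and 2.95 and AXL at -3.54 and 2.20 lie far in the upper left, whereas among the crosses only RASSF1 (1.08) lies past the upper dotted line of 2-fold and only WWC2 (-1.14) past the left one.

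The reliably expressed kinases of the pathway and their adaptors had medians near those of all mRNAs. Of 17 genes, 14 were reliably expressed, and only WWC2 (a paralog of the scaffold protein KIBRA) fell from D0 to D2, from FPKM 6.86 to 3.11, while none rose. These counts were not above the shares of all mRNAs (10.1% and 6.67%). The median log2 ratio of the list was -0.17 from D0 to D2, 0.14 from D2 to D4 and -0.26 from D4 to D8, beside -0.03, 0.09 and -0.21 for all mRNAs. Among genes named here after their values were seen, STK3, the more abundant of the MST kinases, had an FPKM of 20.8 at D0 and between 11.5 and 13.3 later. STK4, RASSF5 and WWC1 were not reliably expressed. Their log2 ratios of D2 to D0 were -0.87, -1.77 and -5.05, that of WWC1 from 144 fragments at D0 and 1 at D2. Without the filter, the median of the list from D0 to D2 was -0.41, beside 0.00 for all mRNAs. LATS1, the paralog of LATS2, was at 4.38, 4.77, 5.50 and 3.77. MOB1A, the coactivator of LATS kinases, also named after its values were seen, stayed between 75.8 and 81.3. FRMD6, a FERM domain protein that acts upstream of the kinases, had an FPKM of 8.93, 14.4, 33.0 and 12.8 at D0, D2, D4 and D8. It rose from D2 to D4 (log2 ratio 1.20) and fell from D4 to D8 (-1.36). RASSF1, a scaffold of the MST kinases, was at 9.78, 6.43, 5.28 and 11.2 and rose from D4 to D8 (1.08), and TAOK2, a kinase of the MST kinases, fell from 6.32 to 3.05 (-1.05). From D2 to D4, 1 of the 14 rose and 0 fell, beside 4.24% and 0.838% of all mRNAs. From D4 to D8, 1 rose and 2 fell, beside 4.43% and 10.1%. With 14 genes, these counts are not read as a result about the list.

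Of 12 binding inhibitors of the coactivators, 10 were reliably expressed. From D0 to D2, AMOTL2 and the phosphoserine-binding adaptors YWHAH and YWHAZ fell, none rose, and the median log2 ratio was -0.68, beside 10.1%, 6.67% and -0.03 for all mRNAs. YWHAZ, the most abundant adaptor, had an FPKM of 293, 130, 174 and 232 at D0, D2, D4 and D8, and YWHAH was at 40.4, 12.8, 13.5 and 20.9. SFN, another adaptor of this family, moved the other way, from 2.55 at D0 to 4.17, 9.37 and 9.97. VGLL4, which competes with YAP1 for TEAD, was higher at D4 (5.69) than at D0 (2.51), D2 (3.48) and D8 (1.94), and fell from D4 to D8 by -1.54. From D2 to D4, 1 of the 10 rose and none fell, beside 4.24% and 0.838% of all mRNAs, with a median of 0.35 beside 0.09. From D4 to D8, none rose and 1 fell, a share near the 10.1% of all mRNAs, with a median of 0.08 beside -0.21. Among the Ajuba proteins and atypical cadherins, 5 of 6 genes were reliably expressed. From D0 to D2, AJUBA and the cadherin FAT4 fell and none rose, beside 10.1% and 6.67% of all mRNAs. The median log2 ratio of this list was -0.87, beside -0.03 for all mRNAs. LIMD1, the relative of AJUBA, had an FPKM of 2.43, 2.89, 5.97 and 2.26, with its highest level at D4, where AJUBA was low, and WTIP was at 10.3, 5.61, 6.21 and 5.44.

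Ratios between paralogs within a library do not depend on how the libraries are scaled against each other. YAP1 was 10.5 times (10 to 11.1) as abundant as WWTR1 at D0, 4.41 times (4.17 to 4.67) at D2, 3.77 times (3.62 to 3.93) at D4 and 4.90 times (4.66 to 5.15) at D8. WWTR1 therefore made up 8.67% of the summed FPKM of both coactivators at D0 and 21.0% at D4. Among the TEAD factors, TEAD2 and not TEAD1 had the highest FPKM in each library, at 14.8, 12.9, 13.3 and 10.6. TEAD3 was at 2.29, 2.46, 2.28 and 1.39, and TEAD4 fell from 2.46 to 1.04 by D2 (log2 ratio -1.24). The summed FPKM of the 4 TEAD genes was 30.8, 23.0, 23.5 and 19.9 at D0, D2, D4 and D8, of which TEAD1 made up 36.4%, 28.7%, 28.1% and 34.7%. VGLL3, a cofactor that binds TEAD in place of the coactivators, had an FPKM of 63.9 at D0, above YAP1, and then 13.7, 19.2 and 30.4, so that it fell from D0 to D2 by a log2 ratio of -2.23.

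**Figure D4:**
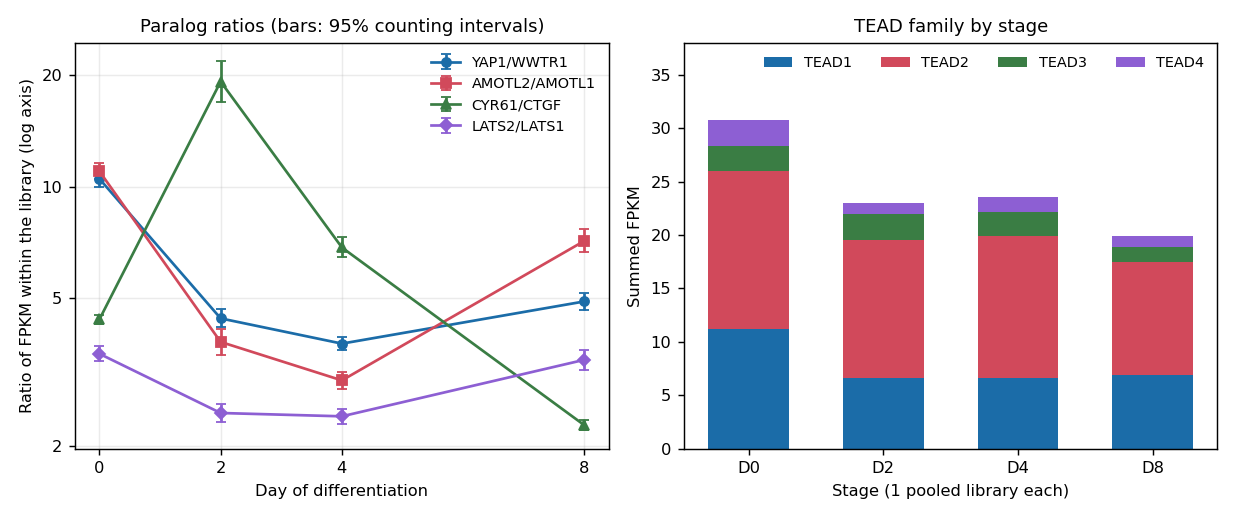
Left, ratio of FPKM between paralogs within each library (log axis) against the day, with bars for the 95% counting intervals. Right, summed FPKM of TEAD1 to TEAD4 by stage. The ratio of YAP1 to WWTR1 was 10.5 at D0 and at most 4.90 later, that of CYR61 to CTGF peaked at 19.2 at D2, and TEAD2 forms the tallest part of each bar.

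The ratio of AMOTL2 to AMOTL1 was 11, 3.81, 3.00 and 7.14 at D0, D2, D4 and D8, since AMOTL1 stayed between FPKM 2.02 and 3.36, and AMOT was under 1 in each library. LATS2 was 3.54 times as abundant as LATS1 at D0, 2.45 times at D2, 2.40 times at D4 and 3.41 times at D8. CYR61 exceeded CTGF 4.38-fold (4.27 to 4.49) at D0, 19.2-fold (16.9 to 21.8) at D2, 6.85-fold (6.44 to 7.30) at D4 and 2.27-fold (2.20 to 2.34) at D8, so that these targets did not move in proportion. Of the other CCN genes, WISP1 was at 4.42, 5.53, 5.12 and 15.5, with its rise (log2 ratio 1.60) confined to the last interval among the 3 successive ones. NOV and WISP2 were not reliably expressed. WISP2 had an FPKM of 1.52 at D0, from 213 fragments, and at most 0.109 later, from 11 fragments or fewer.

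The partners of AXL took different courses. TYRO3, a related receptor, had an FPKM of 3.93, 1.27, 1.34 and 3.31 at D0, D2, D4 and D8, and fell and rose in the same intervals as AXL (log2 ratios -1.62 and 1.29). MERTK stayed under FPKM 0.5. GAS6, the ligand of AXL, was at 10.8, 28.9, 38.2 and 15.5, so that it rose from D0 to D2 (1.42) and fell from D4 to D8 (-1.30), in each case opposite to AXL. PROS1, a ligand of the related receptors, stayed between 44.8 and 58.5. In the muscle ankyrin repeat family, ANKRD23 was at 1.48, 0.412, 1.09 and 1.20.

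The same loci also gave circRNAs, which were measured by reads across the back-splice junction and deposited as SRPBM, in which these reads are scaled to the mapped reads of the library. Within the 10 genes and on their strand, 8 circRNAs were listed, 1 in YAP1, 2 in TEAD1, 2 in LATS2 and 3 in AXL, and none in the other 6 genes. They added up to 64 junction reads at D0 (49.3 to 81.7), 27 at D2 (17.8 to 39.3), 25 at D4 (16.2 to 36.9) and 37 at D8 (26.1 to 51.0). Per 10000 junction reads of all circRNAs, these were 12, 6.14, 4.89 and 9.87 at D0, D2, D4 and D8. The only circRNA found in all 4 libraries was ssc_circ_0001184 of TEAD1 (chr2:46576744-46576999), with an SRPBM of 128, 109, 89.1 and 134 at D0, D2, D4 and D8. Its 20, 15, 15 and 16 junction reads had overlapping intervals, whereas the FPKM of TEAD1 was lower after D0. ssc_circ_0005290 of LATS2 (chr11:1231273-1238890) had 23 junction reads at D0, 5 at D2, none at D4 and 10 at D8. The circRNA of YAP1, ssc_circ_0004693 (chr9:32902790-32920023), was found only at D0, with 10 junction reads. The smallest value listed above 0 in each library was 2 junction reads, so a circRNA listed at 0 may still have had 1, and no limit is given for it.

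The genes with the most similar course were listed by the distance of their 3 log2 ratios to D0, over 4 libraries, among the reliably expressed mRNAs with FPKM of at least 10 in one library. Nearest to CYR61 were SLMAP, JADE1 and C14H1orf198, at distances of 0.12, 0.14 and 0.16 on the log2 scale. SLMAP, for example, had an FPKM of 44.6, 9.55, 10.4 and 26.5 at D0, D2, D4 and D8. CTGF and ANKRD1 had no such close neighbours. Nearest to CTGF was CTHRC1, with an FPKM of 11.2, 0.821, 1.59 and 20.4 and a distance of 0.95, followed by DKK2 (1.08) and ANLN (1.19). Nearest to ANKRD1 were CRABP2 (1.44), CRYAB (2.02) and ACTA2 (2.19).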

How the data were processed

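RNA of 3 piglets was pooled per stage and sequenced as 1 rRNA-depleted directional library each for D0, D2, D4 and D8. Per the labels and the study's methods, the authors aligned reads to Sus scrofa 11.1 with HISAT2 2.0.5 and deposited FPKM for 22944 genes. Back-splice junctions were called by the authors with BWA-MEM and CIRI (at least 2 junction reads) and deposited as SRPBM, a signal scaled by mapped reads. The counting tool is not given in the sources used here.

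Library totals were recovered from the deposited FPKM alone. The most frequent ratio between libraries among low genes gave their relative depth, and tRNA and miRNA genes of known length gave the scale, with the length equal to the annotated one in 93 of 104 single-exon genes checked (75387428 at D0, 54987801 at D2, 74358922 at D4, 54128151 at D8). The smallest length at which the 4 values are whole fragments was then taken for each gene. On simulated data of 6142 genes, all 4 fragment numbers were recovered for 94.8% of the genes. The simulation took the recovered lengths and D0 total as true, so it could not show whether these were right. A number from too small a length is a whole fraction of the true one, which widens its interval. For circRNAs, 100% of values above 0 were whole junction reads (tolerance 0.01).

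Ratios were log2(FPKM + 0.01), which understates changes of low genes, and the threshold was 2-fold without a test (Python 3.11.15, SciPy 1.17.1). The 10 genes and the lists were chosen with earlier results of these data known. All 10 genes are named, and from the 9 lists the genes past 2-fold and the relatives of the 10. For CTGF, CYR61 and ANKRD1, the 3 genes of nearest course are named. STK3, STK4, RASSF5, WWC1, MOB1A, GADD45A, PROS1, the overlapping genes and transcripts, and single cell type markers such as CSPG4 and ACTA2 were named after their values were seen. Promoter motifs and protein features were planned but not analysed here. Alternatives were 2 pseudocounts, 3 scalings, 2 filters and a ratio of 1.5.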

Additional observations from a re-analysis of the deposited data

How the results depend on the processing

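No paired analysis was possible because each stage has 1 library, and for the same reason none was left out. The planned promoter motif and protein comparisons were not run. Of 250 values (50 log2 ratios of the 10 genes under 5 alternatives), 7 changed their side of the 2-fold threshold. After rounding, 9 changed sign or reached 0.00. All 9 were for AJUBA or TEAD1 (D4 vs D2) or for LATS2 or WWTR1 (D8 vs D4), whose ratios are near 0. The value that only reached 0.00 was that of AJUBA under upper-quartile scaling. None of the ratios of at least 2-fold reversed.

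The number of the 9 genes past the threshold stayed within 1.5 times except in comparisons with D0. At D8 vs D0, 2 instead of 1 were lower under TPM (AMOTL2 was added), beside 3.8% of all mRNAs. Without a filter, 1 instead of 0 was higher (ANKRD1), beside 10.5% of all 16192 mRNAs. With a ratio of 1.5, 5 were lower and 1 was higher at D8 vs D0, beside 14.6% and 6.92% of all mRNAs. At D4 vs D0, 1 was higher with this ratio, which is not above the 22% of all mRNAs.

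The median log2 ratio of the target signature kept its sign. For D2 vs D0 (-1.36) it was -0.94 with a pseudocount of 1, -1.25 under TPM, -1.51 without a filter and -1.57 with FPKM of at least 1 in all 4 libraries. For D4 vs D2 (0.39) it was 0.28 with a pseudocount of 1 and 0.30 under median-ratio scaling. For D8 vs D4 (0.63) it was 0.44 with a pseudocount of 1, 0.84 under median-ratio scaling and 0.77 under upper-quartile scaling. For D4 vs D0 (-0.73) it was -0.58 with a pseudocount of 1 and -0.91 without a filter. For D8 vs D0 (-0.70) it was -0.45 with a pseudocount of 1, -0.54 under median-ratio scaling, -0.53 under upper-quartile scaling, -0.50 without a filter and -0.53 with FPKM of at least 1 in all 4 libraries. The filters test other genes, and the cause of the other shifts was not tested. Without replicates, the spread between piglets and between library preparations is not known. The values of the circRNAs and of some genes rest on few reads or fragments. Such genes were ANKRD1 (7 at D2 and at D4), WISP2 (4 at D2 and 1 at D4), NOV (9 at D2) and ANKRD23 (23 at D2).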
